A study of Mus musculus with 16 samples.

Results

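CD45+ cells, the white blood cell lineages, of mouse bone marrow were profiled 4 h after catecholaminergic neurons of the ventrolateral medulla (VLM), a region of the lower brainstem, had been activated. The comparison used 8 of the 16 libraries of the series, 4 labelled DbhVLM-hM3Dq (replicates 5 to 8) and 4 labelled DbhVLM-mCherry (replicates 1 to 4). They were chosen by tissue and virus label alone, and all 49585 genes in the files entered. The other 8 libraries came from spleen cells. All mice were C57BL/6J, were 12 weeks old and carried Dbh-Cre, which makes the recombinase Cre in cells with an active Dbh gene, the gene of the enzyme that makes noradrenaline. The hM3Dq group had the Cre-dependent virus AAV-DIO-hM3Dq-mCherry placed in the VLM of both sides. It carries hM3Dq, an engineered receptor that excites a neuron when clozapine N-oxide (CNO) binds it. The mCherry group had AAV-DIO-mCherry, with the red fluorescent marker alone. CNO was given to both groups, so an effect that CNO or the surgery had in both does not enter the comparison. The receptor belongs to neurons of the brain, and no transcript of these blood cells checks the labels. The design text calls the 4 libraries of a group biological replicates but does not say whether each is 1 mouse, and p-values measure the spread between these libraries. No number occurs in both virus groups, and a batch that followed the numbers cannot be told apart from the virus.

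Catecholaminergic neurons of this region are known to drive sympathetic nerves and to excite the hypothalamic cells that start the release of glucocorticoid hormone from the adrenal gland. Glucocorticoids enter cells and bind the receptor encoded by Nr3c1, which moves to the nucleus, switches on genes such as Fkbp5, Tsc22d3 and Per1, and lowers many inflammatory genes. Noradrenaline and adrenaline act on white blood cells through adrenergic receptors, which set the level of cyclic AMP and other messengers. In bone marrow, neutrophils and their precursors make up much of the CD45+ cells, beside B cell precursors, monocytes and small numbers of other lineages.

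The files give FPKM, fragments scaled to exon length and to all assigned fragments. Assigned fragments were 13.02 M to 14.44 M in the hM3Dq libraries and 12.55 M to 15.9 M in the mCherry libraries, and 13982 to 14480 genes reached 1 FPKM in a library. Levels matched the label. Ptprc, which encodes CD45, stood between 27.8 and 44.8 FPKM. The neutrophil genes Ltf (1665 to 2745 FPKM) and Camp (2944 to 4842) were very high in every library, Mpo and Elane marked precursors, and both defining markers of each of the 18 other cell types listed were above 0 in all 8 libraries. Haemoglobin transcripts showed that some erythroid RNA was present. They took 0.564%, 0.391%, 2.27% and 2.38% of reads in hM3Dq libraries 5 to 8 and 1.34%, 2.20%, 2.84% and 1.67% in mCherry libraries 1 to 4, so that hM3Dq 5 and 6 stood below the rest. These 2 libraries also differed less from each other (chi-square per degree of freedom 12.2) than from hM3Dq 7 and 8 (27.8 to 41.5), which differed from each other by 8.65. The 10 most abundant genes took 20.6 ± 2.00% of reads in hM3Dq and 24.6 ± 2.18% in mCherry libraries (SD, n = 4 each; exact permutation p = 0.0286, the smallest possible, and 0.343 adjusted over 24 library measures). In bulk RNA such as this, fewer cells of a type and less RNA per cell cannot be told apart.

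Of 16095 genes tested with limma, 780 (4.85%) were called at an adjusted p below 0.05, 504 higher (3.13%) and 276 lower (1.71%) in hM3Dq libraries. The higher genes moved further: 145 rose at least 2-fold, 47 at least 3-fold and 22 at least 4-fold, while 47 fell at least 2-fold, 6 at least 3-fold and none at least 4-fold. Overlap was judged in FPKM as deposited, without the composition scaling of the test. Groups did not overlap, every hM3Dq library above every mCherry library, for 1966 genes (12.2%), and in the opposite direction for 614 (3.81%). Without this scaling the median log2 change of all genes was 0.0647, against -0.0042 with it, which favours the first of these counts. The genes called higher lay above the mCherry mean in each hM3Dq library, with a median log2 difference of 0.67, 0.88, 0.70 and 0.69 in libraries 5 to 8, and the genes called lower lay below it, by a median of -0.55, -0.75, -0.60 and -0.67. Library 6 thus had the furthest deviation in both directions. The number of calls rested on single libraries. It was 337 without hM3Dq 6, 445 without hM3Dq 8, and 471, 271 and 316 without mCherry 1, 2 and 4, and 166 higher and 36 lower genes were called whichever library was left out. Without composition scaling 640 genes were called higher and 158 lower, against the main 64.6% higher.

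**Figure D1:**
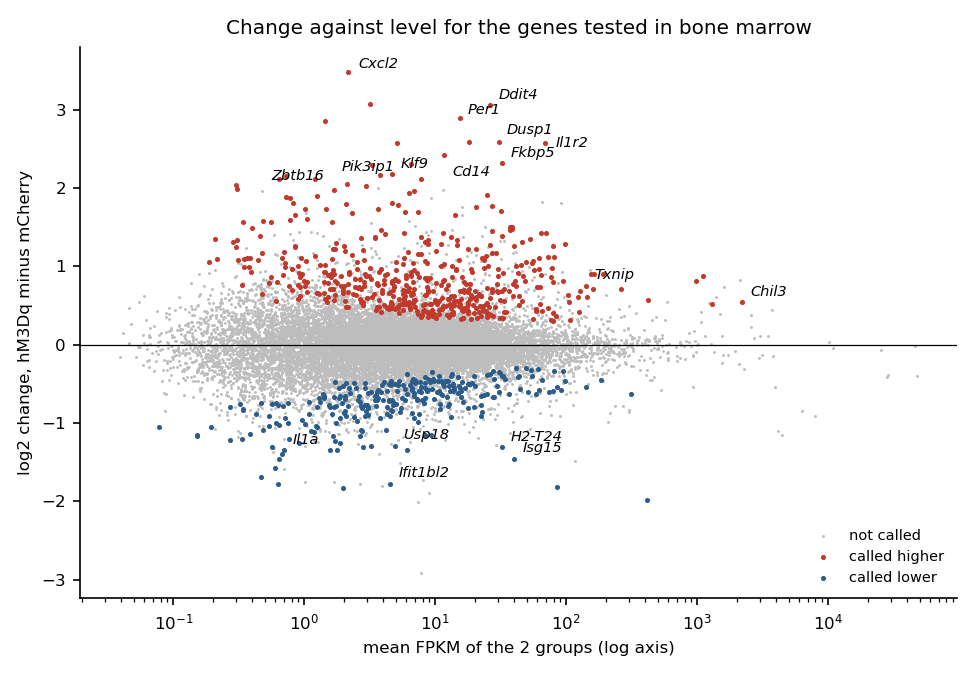
Log2 change (hM3Dq minus mCherry, y axis) against the mean FPKM of both groups (x axis, log scale) for the 16095 genes tested in bone marrow, 1 point a gene. The 504 genes called higher (red) reach further from 0 than the 276 called lower (blue), and Ddit4, Per1, Dusp1, Il1r2 and Fkbp5 combine a large change with a high level.

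The genes with the smallest p were led by known targets of the glucocorticoid receptor. Fkbp5 lies on chromosome 17, 28399094 to 28517527, of GRCm38 and encodes a protein that binds the receptor complex and restrains it. It stood at 52.9, 60.4, 55.1 and 50.1 FPKM in hM3Dq libraries 5 to 8 and at 10.1, 10.6, 10.4 and 10.1 FPKM in mCherry libraries 1 to 4. Each group was tight and the gap between them wide (4.99-fold, log2 change 2.32 ± 0.08, SE of limma, adjusted p = 1.92e-06). Ddit4 (chromosome 10, 59949669 to 59951834), an inhibitor of the growth kinase complex mTORC1, was at 39.6, 54.9, 49.98 and 43.1 against 4.26, 6.68, 5.11 and 5.17 FPKM (8.32-fold, 3.06 ± 0.14, adjusted p = 1.56e-05). Il1r2, a decoy receptor that captures interleukin-1 without signalling, was at 78.9, 162, 119.9 and 113 against 16.4, 16.4, 23.6 and 17.5 FPKM (5.96-fold). The lowest hM3Dq library, 5, was still above the highest mCherry library by more than 3 times.

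Per1 (chromosome 11, 69095217 to 69109960), a core clock gene with direct control by the receptor, spread more widely within the hM3Dq group, at 15.9, 37.7, 23.9 and 32.00 FPKM, against 2.92, 3.70, 3.284 and 3.16 in mCherry libraries (7.41-fold, 2.89 ± 0.23, adjusted p = 0.000755). Dusp1, a phosphatase that switches off MAP kinases, had the same order of libraries, at 28.1, 78.5, 49.9 and 55.4 against 6.16, 7.83, 9.66 and 7.88 FPKM (6.01-fold, adjusted p = 0.00259). In both genes hM3Dq 6 was highest and hM3Dq 5 lowest, without overlap with the mCherry libraries. Klf9, a transcription factor induced by glucocorticoids, was at 7.07, 11.1, 5.99 and 7.25 against 1.85, 1.68, 1.17 and 1.51 FPKM (2.17 ± 0.20). Tsc22d3, whose product GILZ carries out anti-inflammatory effects of the hormone, was at 47.4, 53.2, 49.1 and 46.4 against 9.59, 15.7, 15.7 and 16.9 FPKM (1.71 ± 0.15). Zbtb16, a transcription factor of lymphoid and progenitor cells, was low in all libraries but separated, at 3.46, 3.31, 3.75 and 3.285 against 0.964, 0.732, 0.407 and 0.881 FPKM (2.05 ± 0.23).

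**Figure D2:**
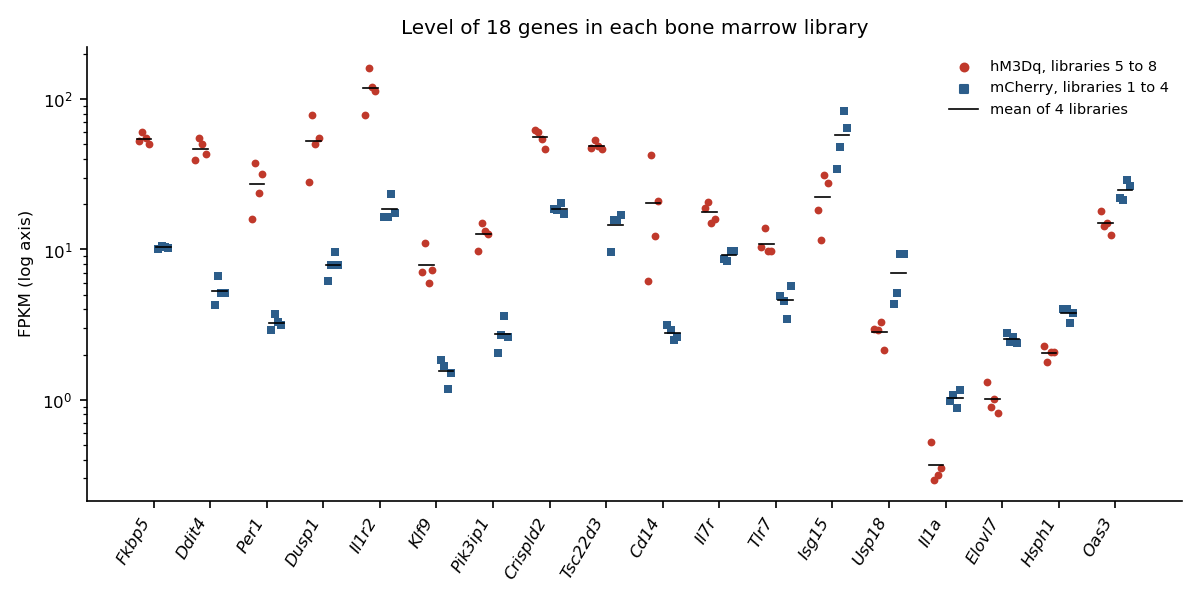
FPKM (log axis) of 18 genes in each of the 8 bone marrow libraries, with hM3Dq libraries 5 to 8 as red circles, mCherry libraries 1 to 4 as blue squares and the mean of each group as a line. None of the 18 genes has overlapping groups, as for 503 of the 504 genes called higher and 258 of the 276 called lower. The hM3Dq libraries spread most for Cd14, from 6.14 to 42.5 FPKM.

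Of the 33 tested genes of the glucocorticoid-induced list, 18 rose and none fell, a share called of 54.5% against 4.85% of all genes. The list was chosen with results of these data known, so its direction is not independent evidence. Its median log2 change was 0.61, against -0.0042 over all genes. Besides the genes above, Crispld2, a secreted protein that binds bacterial lipopolysaccharide (2.83-fold), Map3k6, a stress-activated kinase (1.68 ± 0.13), Pik3ip1, an inhibitor of PI3-kinase (2.12 ± 0.18), and the transcription factor gene Cebpb (1.26 ± 0.21) rose. So did Errfi1, an inhibitor of EGF receptor signalling (1.27 ± 0.26), Nfkbia, the inhibitor of NF-kB (1.12 ± 0.18), Glul, glutamine synthetase (0.98 ± 0.13), Txnip (0.76 ± 0.11), Acsl1 (0.47 ± 0.07) and Irs2 (0.47 ± 0.11). The calls of Errfi1 and Irs2 ended in 5 and 8 of the 8 fits that left out 1 library (highest adjusted p = 0.0806 and 0.126), and those of the other 16 in none, while that of Acsl1 ended in the fit of 16 libraries (adjusted p = 0.141). Sgk1, a kinase that glucocorticoids induce in many tissues, was at 8.71, 9.49, 6.95 and 7.64 against 5.30, 6.57, 6.39 and 6.56 FPKM and was not called (log2 change 0.32 ± 0.11, adjusted p = 0.113). The receptor gene Nr3c1 itself was at 18.5, 18.5, 13.7 and 14.7 against 16.3, 14.5, 12.98 and 15.3 FPKM (0.07 ± 0.12, adjusted p = 0.766), with overlapping groups and a sign that turned under 2 other settings. The metallothionein genes Mt1 and Mt2 and the cycle inhibitor Cdkn1a, further known targets, were not called (adjusted p = 0.464, 0.780 and 0.420). The list count was between 16 and 19 in every setting run, and its median stayed between 0.48 and 0.77.

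Promoter sequences of 3 of these genes are shown because all 3 hold the same short element, for which the other genes were then searched. Each runs 5′ to 3′ from 250 bases before a RefSeq start to 50 bases from it (GRCm38.p6, minus strand for Fkbp5 and Dusp1, plus strand for Per1). They lie at chr17:28486100-28486399, chr11:69098699-69098998 (the first of 2 entries for Per1) and chr17:26508423-26508722. All 3 starts lie inside the full span of the gene, given above for Fkbp5 and Per1, and not at its outer end. Capitals mark the E-box CACGTG, the element of CLOCK-BMAL1 and of MYC-family factors, and in Dusp1 also the cyclic AMP element TGACGTCA, which lies first.
Fkbp5: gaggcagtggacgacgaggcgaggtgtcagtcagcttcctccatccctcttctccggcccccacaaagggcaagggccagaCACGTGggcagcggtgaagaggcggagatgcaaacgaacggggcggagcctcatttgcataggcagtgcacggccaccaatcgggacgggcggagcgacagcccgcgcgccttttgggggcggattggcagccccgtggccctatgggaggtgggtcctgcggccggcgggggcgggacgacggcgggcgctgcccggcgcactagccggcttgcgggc
Per1: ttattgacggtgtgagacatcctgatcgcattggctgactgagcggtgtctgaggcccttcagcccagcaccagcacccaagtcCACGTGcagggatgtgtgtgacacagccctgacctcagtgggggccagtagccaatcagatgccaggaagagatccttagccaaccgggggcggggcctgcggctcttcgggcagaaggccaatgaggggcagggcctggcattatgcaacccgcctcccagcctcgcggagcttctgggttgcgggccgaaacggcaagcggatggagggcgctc
Dusp1: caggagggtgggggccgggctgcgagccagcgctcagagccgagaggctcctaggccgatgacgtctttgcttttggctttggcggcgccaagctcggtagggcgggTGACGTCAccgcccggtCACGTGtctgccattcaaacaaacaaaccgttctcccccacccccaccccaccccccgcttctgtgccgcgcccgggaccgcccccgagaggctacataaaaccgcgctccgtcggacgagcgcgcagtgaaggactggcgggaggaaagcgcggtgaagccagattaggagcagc
The E-box began 169 bases before the start in Fkbp5, 166 in Per1 and 126 in Dusp1, and the cyclic AMP element 143 before it in Dusp1. Both motifs read the same on both strands and do not overlap. An E-box was found in 8.09% of all 27025 promoters of the table, in 11.5% of the 10357 tested genes with an entry, in 16.8% of the 340 matched genes called higher and in 7.69% of the 195 called lower. The shares for the cyclic AMP element were 2.03%, 3.40%, 2.35% and 2.05%. The full palindrome of the glucocorticoid receptor was searched on both strands, within these 300 bases only. It was in 1 of the 340 matched genes called higher (0.294%) and in 16 of the 10357 tested (0.154%). Of the 32 glucocorticoid-induced genes with an entry, 3 held it (9.38%) and 9 held an E-box (28.1%). At most 1 of the 3 with the palindrome was thus a gene called higher. A match is a description and not a site of binding.

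Genes that damp growth and kinase signalling were among the higher genes. In the list of mTORC1 and PI3-kinase brakes 5 of 23 genes rose and none fell (21.7% against 4.85% of all genes, median 0.19). Beside Ddit4 and Pik3ip1 these were Deptor, an inhibitor bound to mTOR (0.93 ± 0.19), Inpp5d, the lipid phosphatase SHIP1 of blood cells (0.37 ± 0.08), and Irs2, an adaptor of the insulin receptor that carries the signal rather than braking it. The list of MAP kinase brakes had Dusp1 and Errfi1 higher among 19 genes (10.5%, median 0.27). Ddit4, Pik3ip1, Irs2, Dusp1 and Errfi1 are also members of the glucocorticoid-induced list, so these counts are not independent of it. The same holds for Il1r2, Klf9, Cebpb, Per1, Nfkbia, Acsl1 and Txnip in the lists below. Sik1, a kinase that holds back CREB coactivators, was at 18.4, 25.5, 19.99 and 19.9 against 6.58, 8.59, 8.78 and 8.57 FPKM (1.28 ± 0.12), and Sla, an adaptor that lowers antigen receptor signalling, at 43.4, 46.1, 39.6 and 34.1 against 18.2, 20.8, 19.1 and 20.5 (0.97 ± 0.09). Groups did not overlap for any of the 5, as for 503 of the 504 genes called higher. Calls of Deptor and Inpp5d ended in 4 and 7 of 8 fits without 1 library (highest adjusted p = 0.0721 and 0.102).

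Genes of cell death regulators moved singly. In a list of 23 genes of the BCL2 family, death receptors and related death regulators 2 rose (8.70% against 4.85% of all genes). Bmf, a BH3-only killer protein, was at 8.76, 13.4, 10.6 and 9.05 against 4.02, 3.31, 4.87 and 5.47 FPKM (1.16 ± 0.19). Trp53inp1, a stress protein induced by p53 that belongs to neither family, was at 55.5, 65.7, 53.5 and 55.5 against 28.2, 28.9, 29.2 and 28.9 FPKM (0.92 ± 0.08). The list median was -0.02 and changed sign between settings. Among genes of smallest p with other roles were Foxred2, an enzyme of protein disposal in the endoplasmic reticulum (1.37 ± 0.10), Rdh12, a retinal reductase (1.45 ± 0.15), Tbc1d23, a protein of vesicle capture at the Golgi (1.08 ± 0.11), Ms4a8a, a tetraspanning membrane protein (1.93 ± 0.19), and Sult1a1, a sulfotransferase of phenols and hormones (2.30 ± 0.25). All of these calls remained with each library left out.

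A number of cytokine receptor genes rose. In the list of cytokine and growth factor receptors 8 of 35 rose and none fell (22.9% against 4.85% of all genes, median 0.14). Il1rap, the signalling partner of the interleukin-1 receptor, was at 4.60, 8.47, 4.26 and 5.90 against 1.92, 1.87, 1.66 and 2.01 FPKM (1.47 ± 0.20, adjusted p = 0.00666). Il7r, the interleukin-7 receptor chain that lymphoid cells need, was at 18.9, 20.8, 14.96 and 15.9 against 8.59, 8.36, 9.81 and 9.82 FPKM (0.86 ± 0.11, adjusted p = 0.00633). Il15ra, which presents interleukin-15 to other cells, was at 3.10, 3.64, 3.38 and 2.83 against 0.948, 1.66, 1.54 and 1.31 FPKM (1.14 ± 0.16). Il18rap (0.69 ± 0.12), Il4ra (0.59 ± 0.10), Il6ra (0.52 ± 0.11) and Flt3, the receptor of early progenitors and dendritic cells (0.82 ± 0.14), completed the list with Il1r2. None of the 8 had overlapping groups, as for 503 of the 504 genes called higher. The call of Il6ra ended in 7 of 8 fits without 1 library (highest adjusted p = 0.0808). Downstream, Socs3, the feedback inhibitor of STAT3 signalling, rose (6.55, 8.61, 5.65 and 6.43 against 2.81, 3.12, 3.75 and 3.45 FPKM, 0.95 ± 0.14).

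Transcription factor genes of the myeloid lineage rose in part. Of 26 genes of the C/EBP and KLF families and other lineage factors 6 rose and none fell (23.1% against 4.85% of all genes, median 0.03). Cebpb, which supports emergency production of neutrophils, was at 78.00, 156, 105 and 114 against 30.99, 47.2, 46.9 and 52.7 FPKM. Id2, an inhibitor of E proteins, was at 86.97, 93.2, 77.9 and 74.1 against 31.4, 44.1, 42.9 and 43.99 FPKM (0.97 ± 0.11), Klf13 at 32.96, 37.2, 35.9 and 31.1 against 15.4, 15.8, 16.9 and 16.6 (1.00 ± 0.09), and Gfi1, a repressor needed for neutrophil formation, at 13.5, 14.8, 12.1 and 13.7 against 8.60, 9.88, 9.33 and 8.75 (0.49 ± 0.08). Cebpd, a related factor, was at 22.7, 23.3, 21.5 and 19.7 against 20.9, 22.5, 27.7 and 25.2 FPKM and was not called (-0.21 ± 0.10, adjusted p = 0.236). Neither was Myc, a driver of growth (0.20 ± 0.11, adjusted p = 0.284). Cebpa changed least (0.34 ± 0.08), and its call ended whichever library was left out (highest adjusted p = 0.126).

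Of the 18 tested clock genes 4 rose and none fell (22.2% against 4.85% of all genes, median 0.28). Beside Per1 these were Tef, an output factor (2.63, 2.85, 2.20 and 2.13 against 1.19, 1.33, 1.378 and 1.43 FPKM, 0.76 ± 0.12), Nfil3, which opposes it (0.78 ± 0.17), and Cry2, a repressor of the clock (0.57 ± 0.12). Calls of Nfil3 and Cry2 ended in 5 and 7 of 8 fits without 1 library (highest adjusted p = 0.0856 and 0.0959). The median was 0.54 in hM3Dq library 6 and between 0.11 and 0.28 in the other 3. Of 19 immediate early factors 10.5% were called: Fos rose (4.29, 21.5, 8.54 and 11.7 against 1.85, 2.75, 2.64 and 2.15 FPKM, 1.96 ± 0.40) and Ier5 fell (-0.50 ± 0.08). The call of Fos ended in 5 of 8 fits without 1 library (highest adjusted p = 0.0721).

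Few genes of the adrenergic pathway moved. Of 19 tested genes for adrenergic receptors and cyclic AMP handling 1 rose (5.26% against 4.85% of all genes), Arrb2, the arrestin that uncouples such receptors (186, 187, 179.7 and 155 against 92.1, 110.3, 136 and 107 FPKM, 0.60 ± 0.12), and its call ended in 4 of 8 fits without 1 library (highest adjusted p = 0.0691).

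Sensors of microbes changed unevenly. Of 23 toll-like receptors and adaptors 4 rose and 1 fell (21.7% called against 4.85% of all genes, median 0.03). Tlr7, the endosomal sensor of single-stranded RNA, was at 10.4, 13.8, 9.79 and 9.71 against 4.90, 4.53, 3.44 and 5.67 FPKM (1.16 ± 0.17). Tlr13, the mouse sensor of bacterial ribosomal RNA, was at 38.6, 37.7, 31.8 and 28.1 against 20.01, 20.1, 20.01 and 20.1 FPKM (0.68 ± 0.10), and Tlr6, a partner of TLR2, rose by 0.68 ± 0.12, a call that ended in 1 of 8 fits without 1 library (adjusted p = 0.0504). Tlr5, the flagellin receptor, fell, from 2.64, 2.88, 2.30 and 1.82 to 1.49, 0.949, 0.853 and 0.834 FPKM (-1.23 ± 0.20). Cd14, the lipopolysaccharide co-receptor, had the widest spread, at 6.14, 42.5, 12.3 and 20.9 against 3.16, 2.91, 2.48 and 2.62 FPKM (2.42 ± 0.48, adjusted p = 0.0232). Its change was 1.96 to 2.89 with each library left out, and its call ended in 4 of these 8 fits. Clec4e and Clec4d, paired receptors for microbial glycolipids on phagocytes, were at 15.8, 31.3, 17.02 and 21.4 against 7.51, 7.55, 7.83 and 8.005 and at 39.4, 95.8, 62.02 and 71.7 against 19.2, 23.5, 33.00 and 24.01 FPKM. Clec4e was called in every fit and Clec4d in 3 of 8 without 1 library (highest adjusted p = 0.0670).

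Inflammatory genes moved in both directions. Of 27 tested NF-kB targets and cytokines 3 rose and 3 fell (22.2% against 4.85% of all genes, median -0.11). Il1a, which encodes interleukin-1 alpha, was lower, at 0.523, 0.292, 0.316 and 0.350 against 0.988, 1.07, 0.888 and 1.16 FPKM (-1.34 ± 0.17, adjusted p = 0.00595), as was Il1rn, the interleukin-1 receptor antagonist, at 7.39, 6.74, 6.33 and 5.85 against 8.48, 9.74, 12.4 and 9.79 (-0.67 ± 0.12), and Tnfaip2 (-0.44 ± 0.08), whose call ended in 2 of 8 fits without 1 library (highest adjusted p = 0.0660). Nfkbia, at 82.7, 128, 95.1 and 94.2 against 31.7, 41.9, 55.8 and 46.7 FPKM, and Birc3, an inhibitor of apoptosis induced by NF-kB, at 22.96, 33.1, 23.03 and 22.9 against 11.7, 11.6, 12.2 and 13.5, were higher. Cxcl2, a chemokine that draws neutrophils, was at 0.535, 10.9, 1.31 and 3.94 against 0.0304, 0.272, 0.0771 and 0.163 FPKM (3.48 ± 0.76, adjusted p = 0.0341). Its hM3Dq libraries differed from each other by more than 20 times, and its call ended in all 4 fits that left out an mCherry library and in 5 other settings, while without any 1 hM3Dq library it had too few reads to be tested. Il1b was at 18.5, 23.1, 13.9 and 16.95 against 8.84, 14.6, 15.2 and 13.3 FPKM and was not called (0.41 ± 0.18, adjusted p = 0.192). Of the interleukin-1 genes named here, the decoy Il1r2 and the accessory chain Il1rap were higher, Il1a and Il1rn lower, and Il1b not called. They come from different lists and were not counted as a set. Of the 19 tested eicosanoid genes only Hpgd, which breaks down prostaglandins, was called (5.26% against 4.85% of all genes). It was lower (-0.86 ± 0.18), with overlapping groups and a call that ended in 6 of 8 fits without 1 library and in 3 other settings.

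**Figure D3:**
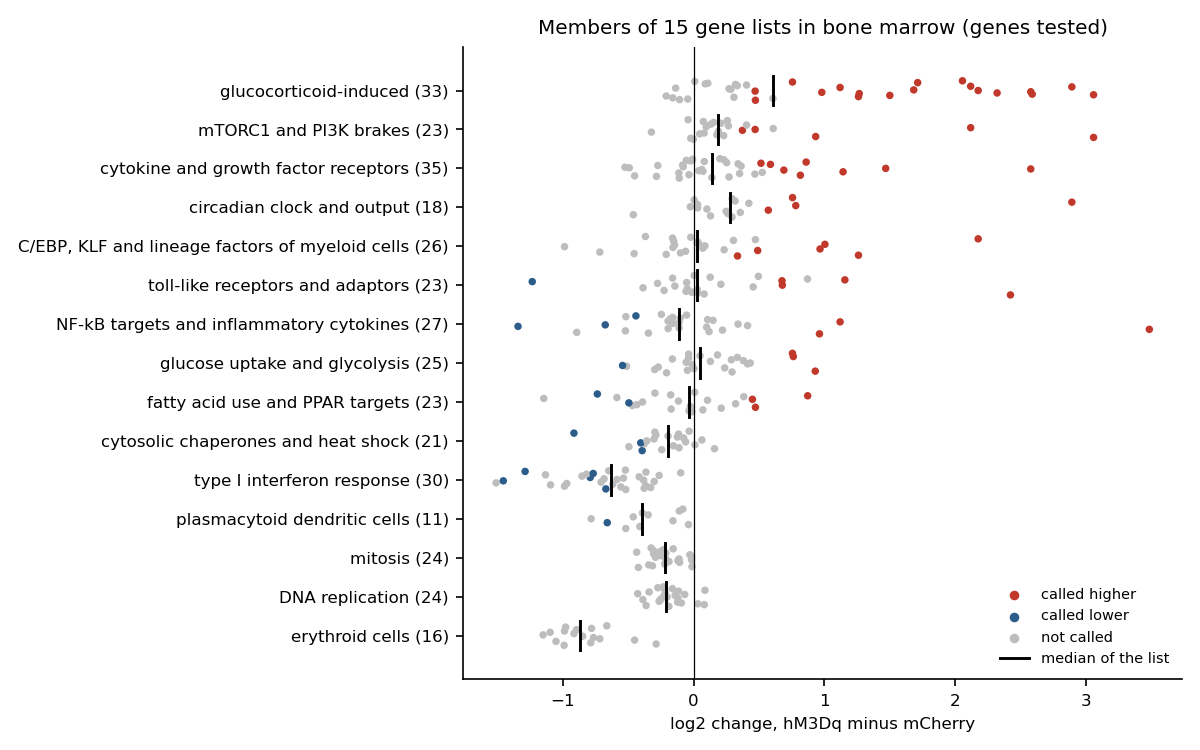
Log2 change (x axis, hM3Dq minus mCherry) of the tested members of 15 gene lists (rows, with the number of genes), 1 point a gene, red where called higher, blue where called lower and grey where not called, with a line at the median of each list. The glucocorticoid-induced genes extend to the right with 18 calls, and all 30 interferon genes, all 24 mitosis genes and all 16 erythroid genes lie left of 0, with 5, 0 and 0 calls.

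Genes of the type I interferon response lay lower, and a few of them passed the test. All 30 tested genes of the list lay below 0, with a median of -0.63, and 5 were called, all lower (16.7% against 1.71% of all genes). Isg15 (chromosome 4, 156199424 to 156200818), a ubiquitin-like protein that interferon induces, was at 18.4, 11.6, 31.4 and 27.8 against 34.2, 47.8, 82.97 and 64.5 FPKM (-1.45 ± 0.35, adjusted p = 0.0450). Usp18, the protease that removes ISG15 and limits interferon signalling, was at 2.96, 2.90, 3.30 and 2.15 against 4.31, 5.14, 9.31 and 9.29 FPKM (-1.29 ± 0.26), and Oas3, a sensor of double-stranded RNA, at 17.99, 14.4, 15.05 and 12.5 against 21.9, 21.4, 29.1 and 26.4 (-0.79 ± 0.13). Cmpk2, a nucleotide kinase of mitochondria, was at 27.9, 18.8, 21.6 and 21.1 against 30.9, 30.3, 34.1 and 39.3 FPKM (-0.67 ± 0.13). Outside the list, Ifit1bl2, of the interferon-induced IFIT family (-1.77 ± 0.33), and H2-T24, a nonclassical class I histocompatibility gene (-1.31 ± 0.22), were among the lower genes of largest change. The call of Ifit1bl2 ended in 2 of 8 fits without 1 library (highest adjusted p = 0.0540).

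The control libraries were not uniform in this response. The median deviation of the 30 genes from the mCherry mean was -0.36, -0.23, 0.25 and 0.35 in mCherry libraries 1 to 4 and -0.41, -0.47, -0.65 and -0.80 in hM3Dq libraries 5 to 8, so the groups did not overlap but mCherry 1 lay close to hM3Dq 5. The call of Oas3 was kept with each library left out, while those of Isg15, Usp18 and Cmpk2 ended in 6, 3 and 3 of 8 fits (highest adjusted p = 0.114, 0.0643 and 0.0621). Of 24 genes of the interferon gamma response and class II presentation none was called, 19 were below 0, and the median was -0.14.

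The promoter of Isg15 is shown because it carries the element found in 10 of the 20 genes of this list with an entry. It lies at chr4:156200769-156201068 on the minus strand, and capitals mark the run of 2 overlapping matches to the interferon-stimulated response element (ISRE).
Isg15: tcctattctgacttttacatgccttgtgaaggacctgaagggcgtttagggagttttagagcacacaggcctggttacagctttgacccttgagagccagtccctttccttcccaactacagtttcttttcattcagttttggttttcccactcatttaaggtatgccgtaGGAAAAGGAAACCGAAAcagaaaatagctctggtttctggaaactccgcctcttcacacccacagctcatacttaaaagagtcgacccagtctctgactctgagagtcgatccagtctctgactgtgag
The matches began 79 and 73 bases before the start of the gene. The element was found on either strand in 2.96% of the tested genes, in 5.13% of those called lower and in 2.94% of those called higher.

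A few heat shock and chaperone genes fell. Of 21 tested cytosolic chaperones 3 fell and none rose (14.3% against 4.85% of all genes, median -0.19), and 18 lay below 0. Hsph1, a large chaperone that recharges HSP70, was at 2.27, 1.79, 2.08 and 2.09 against 4.03, 4.04, 3.24 and 3.79 FPKM (-0.91 ± 0.12, adjusted p = 0.00697). Ahsa1, which stimulates HSP90 (-0.39 ± 0.08), and Fkbp4, the co-chaperone that competes with Fkbp5 for the glucocorticoid receptor complex (-0.40 ± 0.09), fell less, and their calls ended in 5 and 7 of 8 fits without 1 library (highest adjusted p = 0.0942 and 0.0890). In the endoplasmic reticulum list of 22 genes 9.09% were called, against 4.85% of all genes. Herpud1, a factor of protein degradation there, rose (0.78 ± 0.15) and Creld2 fell (-0.66 ± 0.14), with calls lost in 3 and 6 of 8 such fits (highest adjusted p = 0.0658 and 0.0890). The heat shock element searched was GAANNTTC, which reads the same on both strands.
Fkbp4: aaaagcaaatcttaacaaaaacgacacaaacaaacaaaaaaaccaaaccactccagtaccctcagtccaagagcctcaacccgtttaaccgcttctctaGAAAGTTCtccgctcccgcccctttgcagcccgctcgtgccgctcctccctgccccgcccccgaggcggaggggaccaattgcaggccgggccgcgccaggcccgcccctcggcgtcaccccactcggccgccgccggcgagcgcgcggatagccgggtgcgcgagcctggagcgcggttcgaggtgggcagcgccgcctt
This promoter, at chr6:128438607-128438906 on the minus strand, held the element (capitals) 151 bases before the start. The element was in 57.9% of the 19 chaperone genes with an entry and in 7.11% of tested genes. It was in 9.23% of the 195 matched genes called lower and in 8.24% of the 340 called higher.

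Metabolic genes changed in small numbers. Of 23 genes of fatty acid use 3 rose and 2 fell (21.7% against 4.85% of all genes, median -0.03). Pnpla2, the lipase that starts the release of stored fat, was at 33.7, 45.7, 41.3 and 36.97 against 18.5, 20.99, 21.96 and 19.98 FPKM (0.87 ± 0.11), and Lipe, hormone-sensitive lipase (0.45 ± 0.09), and Acsl1 rose less. Cpt2, of fatty acid import into mitochondria (-0.49 ± 0.11), and Pparg (-0.73 ± 0.16) fell. Of 25 genes of glucose uptake and glycolysis 3 rose and 1 fell: the glucose transporter gene Slc2a1 (0.76 ± 0.14) rose beside Txnip and Arrdc4 (0.93 ± 0.16), arrestin-like proteins that pull glucose transporters from the surface, and the hexokinase gene Hk3 fell (-0.54 ± 0.10). Calls of Lipe, Cpt2, Pparg, Slc2a1 and Hk3 ended in 5, 7, 7, 2 and 5 of 8 fits without 1 library (highest adjusted p = 0.0892, 0.108, 0.0895, 0.0530 and 0.0567). Mthfd2, a mitochondrial enzyme of folate metabolism, was the 1 gene of 21 called in the amino acid response list (4.76%). It was lower (-0.48 ± 0.10), and that call ended in 6 of 8 such fits (highest adjusted p = 0.0969). None of 21 cholesterol genes (18 below 0, median -0.22), 29 genes of autophagy and lysosome, 25 of ribosome biogenesis, 24 of antioxidant and iron handling or 83 cytosolic ribosomal protein genes was called.

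Erythroid and proliferation genes followed 2 libraries. All 16 tested erythroid genes lay below 0 (median -0.87) and none was called. The median deviation of these genes was -1.45 and -1.94 in hM3Dq libraries 5 and 6, where haemoglobin took 0.564% and 0.391% of reads, and -0.14 and 0.12 in hM3Dq 7 and 8, beside -0.21 to 0.17 in the mCherry libraries. All 24 mitosis genes lay below 0 (median -0.22), with -0.30, -0.49, -0.09 and 0.07 in hM3Dq libraries 5 to 8, and 21 of 24 DNA replication genes (median -0.21), with -0.33, -0.37, -0.08 and 0.01, and none was called. With hM3Dq 5 and 6 left out, an alternative chosen after seeing the data, the medians were 0.08 for erythroid, -0.02 for mitosis and -0.04 for replication genes, while that of glucocorticoid-induced genes was 0.66 with 16 calls and that of interferon genes -0.79. With hM3Dq 7 and 8 left out all 16 erythroid genes were called lower. Both pairs were chosen by their haemoglobin shares, so the erythroid values with either pair left out follow from that choice and are no test. Among cell cycle regulators, Ccnd1, cyclin D1, fell (0.955, 1.84, 2.26 and 1.73 against 3.50, 4.03, 2.996 and 3.93 FPKM, -1.17 ± 0.24), and Rbl2, a repressor of the cycle, rose (0.40 ± 0.09), with calls lost in 5 and 8 of 8 fits without 1 library (highest adjusted p = 0.0794 and 0.114).

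**Figure D4:**
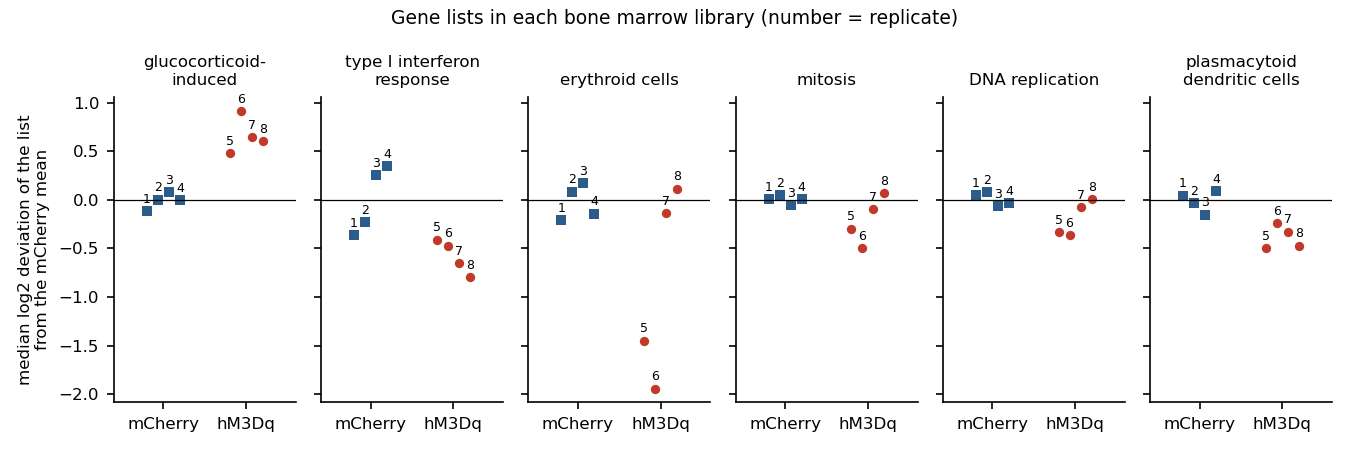
Median log2 deviation from the mCherry mean (y axis) of 6 gene lists in each bone marrow library, blue squares for mCherry 1 to 4 and red circles for hM3Dq 5 to 8, with the replicate number at each point. All 4 hM3Dq libraries lie above the mCherry libraries for glucocorticoid-induced genes (0.48 to 0.91) and below them for interferon genes, while for erythroid genes only hM3Dq 5 and 6 stand apart, at -1.45 and -1.94.

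Markers of most cell types did not move as groups. Of the 19 lists, neutrophil precursors (10 genes tested, 1 called, Gfi1), immature neutrophils (13, 1 called), mature neutrophils (14, 1 called, Clec4d) and classical monocytes (12, 2 called) had medians of -0.03, -0.09, 0.25 and -0.0022. Chil3, an abundant secreted protein of immature neutrophils, was at 2866, 2776, 2672 and 2267 against 1623, 1743, 1863 and 1657 FPKM (0.54 ± 0.12), Fn1, fibronectin, at 90.1, 100.2, 80.5 and 65.8 against 49.6, 45.6, 29.7 and 49.3 (0.89 ± 0.18), and Ccr1, a chemokine receptor of monocytes, at 66.3, 74.1, 55.4 and 57.8 against 30.9, 36.6, 36.1 and 32.8 (0.81 ± 0.09, adjusted p = 0.00372). The call of Ccr1 was kept with each library left out, and those of Chil3 and Fn1 ended in 6 and 5 of 8 fits (highest adjusted p = 0.109 and 0.0722). All 11 plasmacytoid dendritic cell genes lay below 0 (median -0.39) with 1 called (9.09%), Cox6a2 (-0.66 ± 0.15). Its groups overlapped, and its call ended in 7 of 8 fits without 1 library and in 7 other settings. The summed FPKM of the 11 genes was 98.0 to 113.5 in hM3Dq and 118 to 148 in mCherry libraries (exact permutation p = 0.0286, the smallest possible, and 0.343 adjusted over 24 measures). The list holds Bst2, which the interferon list holds too. The part of these cells in the interferon result was not tested. Plasma cell genes had Jchain (305, 403, 318 and 296 against 177, 208, 209.6 and 168 FPKM, 0.72 ± 0.12) and Prdm1 (0.76 ± 0.16) higher among 12 (16.7% against 4.85% of all genes). The call of Prdm1 ended in 6 of 8 fits without 1 library (highest adjusted p = 0.0799) and in 4 other settings. The summed FPKM was 478 to 620.0 against 391 to 514 (exact permutation p = 0.0571, 0.457 adjusted). Single lower genes were the macrophage factor Spic (-0.68 ± 0.14), Zbtb46 of conventional dendritic cells (-0.74 ± 0.16), Fcer2a of B cells (-0.94 ± 0.17) and the endothelial receptor Kdr (-0.82 ± 0.19), with calls lost in 6, 6, 2 and 7 of 8 fits without 1 library. None of the T cell (14 tested), NK cell (12), eosinophil, basophil and mast cell (14) and nonclassical monocyte (9) genes was called. Of the 12 megakaryocyte genes none was called, and Thbs1, thrombospondin 1, which monocytes make too, was at 20.1, 242, 58.7 and 117 against 20.8, 19.1, 20.8 and 21.2 FPKM (1.82 ± 0.61, adjusted p = 0.118).

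Genes by which cells are held in the marrow were called at about the share of all genes. Cxcr4, the receptor for the retention chemokine CXCL12, was at 253, 247, 254 and 229.7 against 159, 185, 212 and 181 FPKM. The groups did not overlap, but the gene was not called (log2 change 0.35 ± 0.09, adjusted p = 0.0661). It was called in 4 other fits, those without composition scaling, of 16 libraries, with voom and without mCherry 3, and the adjusted p ranged from 0.0358 to 0.190 over all settings. Of 26 retention and mobilisation receptors only Ccr1 was called (3.85% against 4.85% of all genes), and the median of -0.01 changed sign between settings. The receptors Cxcr2 and Csf3r of mature neutrophils were at 128, 114, 104 and 89.7 against 92.4, 90.03, 110.4 and 86.7 FPKM and at 127, 116, 113 and 102 against 109, 135, 175 and 118, with overlapping groups (adjusted p = 0.584 and 0.247).

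The lower genes of smallest p had varied roles. Elovl7, a fatty acid elongase, was at 1.32, 0.890, 1.02 and 0.819 against 2.77, 2.43, 2.62 and 2.37 FPKM (-1.34 ± 0.16, adjusted p = 0.00377). Rbm14, an RNA-binding coactivator, was at 8.18, 7.01, 8.36 and 8.82 against 13.4, 14.1, 13.03 and 13.7 (-0.81 ± 0.10), and Dynll1, a dynein light chain, at 10.5, 7.53, 9.92 and 9.30 against 13.8, 18.1, 18.2 and 17.4 (-0.92 ± 0.12). Genes of genome upkeep and division included Chtf8, of a clamp loader of replication (-0.63 ± 0.08), the endonuclease gene Mus81 (-0.76 ± 0.11) and the centriole gene Spice1 (-1.02 ± 0.15). The others were Apip, of methionine salvage (-0.61 ± 0.09), Ccdc91 (-0.93 ± 0.14), Nfya, a subunit of the CCAAT-binding factor (-0.47 ± 0.07), Bcs1l, which assembles respiratory complex III (-0.68 ± 0.11), and the 5S ribosomal RNA gene n-R5s183 (-1.35 ± 0.18), which has many near-identical copies and a value that is therefore uncertain. All of these calls were kept with each library left out, except that n-R5s183 passed the filter on reads in only 4 of those 8 fits. Gpr27, an orphan receptor (-1.15 ± 0.26), was among the lower genes of largest change, and its call ended in 7 of 8 such fits (highest adjusted p = 0.0968).

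Few genes were called for a difference in response between bone marrow and spleen. With 4 libraries in a group, a gene that was not called may still differ. Of 17987 genes tested for a difference between the tissues 18 were called (0.1%), 7 more positive and 11 more negative in bone marrow, and 1603 had an unadjusted p below 0.05. Of the 485 genes called higher in bone marrow and tested in spleen, 200 were higher there too, 41.2% of them and 31.4% of the 636 genes called higher in spleen. Of the 261 called lower, 90 were lower in spleen, 34.5% of them and 11.9% of the 754 lower there, and no gene was called in opposite directions. Fkbp5 changed by 2.32 ± 0.08 in bone marrow and 2.87 ± 0.10 in spleen (difference -0.54 ± 0.12, adjusted p = 0.106), Ddit4 by 3.06 ± 0.14 and 2.27 ± 0.17 (adjusted p = 0.223) and Per1 by 2.89 ± 0.23 and 1.66 ± 0.28 (adjusted p = 0.307).

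Among the 18 were 6 genes called in bone marrow. Ptp4a1, a phosphatase of regenerating tissue, was at 11.1, 16.4, 11.7 and 12.00 against 4.87, 4.24, 4.73 and 5.05 FPKM in bone marrow and at 4.59, 4.83, 4.48 and 5.28 against 3.54, 3.85, 4.03 and 4.14 in spleen (difference 1.07 ± 0.16, adjusted p = 0.0312). Samsn1, an adaptor that restrains B cell and mast cell activation, was at 30.7, 46.1, 28.7 and 30.8 against 12.6, 15.8, 14.5 and 14.9 in bone marrow and at 11.9, 9.45, 10.1 and 10.4 against 10.5, 12.3, 10.2 and 9.96 in spleen (difference 1.20 ± 0.18). Pla2g3, a secreted phospholipase, rose at a low level in bone marrow (0.534, 0.476, 0.487 and 0.540 against 0.188, 0.195, 0.238 and 0.101 FPKM; difference 1.37 ± 0.22), as did the pseudogene Gm13767 (difference 1.02 ± 0.17). Ston1, an endocytic adaptor, rose in both and, on the scale used, more in spleen (1.99 ± 0.19 and 3.89 ± 0.25, difference -1.79 ± 0.31). It was at 0.408, 0.670, 0.490 and 0.645 against 0.0556, 0.0778, 0.0529 and 0.0448 FPKM in bone marrow. In spleen it was at 3.96, 7.82, 5.42 and 7.77 against 0.313, 0.379, 0.365 and 0.202. The bone marrow mCherry values lie below the 0.1 added before the logarithm, so that change is understated and the difference uncertain in size. Over other settings the bone marrow change ranged from 0.54 to 3.02. The transcript Gm7457 fell in bone marrow (-1.15 ± 0.20, difference -1.62 ± 0.27). Cxcr4 rose in spleen (164, 209, 168 and 177 against 55.9, 64.4, 53.02 and 69.4 FPKM, 1.55 ± 0.10), and its response there exceeded that of bone marrow (difference -1.18 ± 0.13, adjusted p = 0.00238). Bbc3, the BH3-only death gene PUMA, named here after its values were seen, was at 2.53, 3.06, 3.29 and 4.05 against 3.08, 3.58, 3.26 and 3.37 FPKM in bone marrow and at 17.3, 20.2, 17.5 and 22.1 against 5.96, 7.79, 6.41 and 5.41 in spleen (difference -1.68 ± 0.21, adjusted p = 0.00424). With 1 bone marrow library left out, the calls of Cxcr4 and Bbc3 were kept in all 8 fits. The calls of Samsn1 and Ptp4a1 ended in 3 fits each, those of Pla2g3, Gm13767 and Gm7457 in 5 each, and that of Ston1 in 7. With the replicate number as a block, Bbc3, Cxcr4 and Ston1 were called, and Samsn1, Ptp4a1, Pla2g3, Gm13767 and Gm7457 were not. The number of differences called was 7, 7, 6, 4, 33 and 5 without hM3Dq 6, hM3Dq 7 and mCherry 1, 2, 3 and 4 of bone marrow, 81 with a pseudocount of 1 and 11 without composition scaling.

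**Figure D5:**
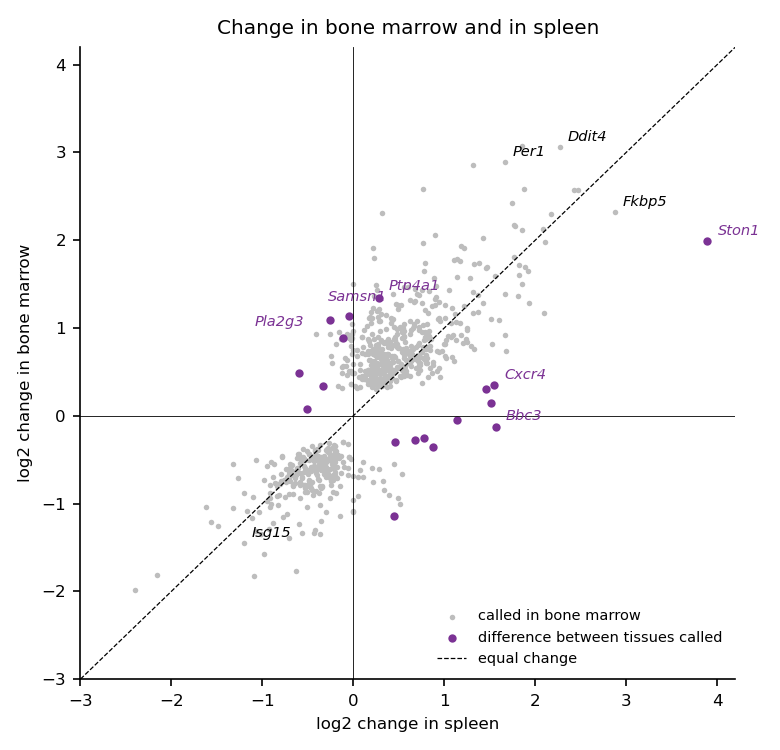
Log2 change in bone marrow (y axis) against that in spleen (x axis) for the genes called in bone marrow and tested in both (grey) and for the 18 genes whose response differed between tissues (purple), with a dashed line of equal change. Genes called in bone marrow, which were chosen for their change on the y axis, lie mostly in the upper right and lower left, with Ptp4a1, Samsn1 and Pla2g3 above the dashed line and Cxcr4, Bbc3 and Ston1 below it.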

How the data were processed

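RNA of CD45+ bone marrow cells was sequenced in 8 libraries, 4 labelled DbhVLM-hM3Dq and 4 DbhVLM-mCherry. The authors deposited FPKM for 49585 Ensembl genes, of which 49326 (99.5%) had a symbol. Per the submitters' processing notes, the tools were CASAVA 1.9, STAR 2.6.1a, featureCounts and edgeR 3.28.1, and the build was GRCm38. Neither the gene annotation used nor whether strand was counted is given in the sources used here, so overlapping and antisense genes cannot be told apart. Of 31954 genes above 0, FPKM times the exon length of GENCODE M21 gave whole reads in 27893 (87.3%, tolerance 0.01), and in 4026 another length did. These recovered reads served for a filter (at least 10 reads in at least 4 of 8 libraries), for TMM factors and for shares.

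Changes are on the scale of log2(FPKM / TMM factor + 0.1), which understates those of low genes, and were tested with limma 3.58.1 (trended spread, R 4.3.3), two-sided, with Benjamini-Hochberg adjustment over all tested genes. Calls are adjusted p-values below 0.05, and errors are limma's SE. The difference between the tissues was an interaction term over all 16 libraries. Single library measures were compared by exact permutation over 70 arrangements. Tables and figures were made in Python 3.11.15 (pandas 2.3.3, numpy 2.4.6, matplotlib 3.10.9), and the fits were tested on simulated data.

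The genes named are the 20 higher and 14 lower called genes of smallest p whose groups did not overlap, the 10 higher and 6 lower of largest change with a mean of at least 5 FPKM, a panel of 24 genes, members of 30 response and 19 cell type lists, and up to 6 genes called in bone marrow on each side of the tissue difference. Predicted models, pseudogenes and antigen receptor segments were left out of the first 2 parts. The comparison, the lists and the panel were chosen with earlier results of these data known. Motifs were searched on both strands of RefSeq promoters. The alternatives changed the pseudocount, scaling, filter, spread model, samples, a haemoglobin covariate and the test (voom on recovered reads). Some genes that these rules name are not reported here.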

Additional observations from a re-analysis of the deposited data

Results flagged for a closer look

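The response of 8 genes differed between bone marrow and spleen by the interaction term of limma (bone marrow minus spleen, log2). It was more positive in bone marrow for Pla2g3 (1.37 ± 0.22), Samsn1 (1.20 ± 0.18), Ptp4a1 (1.07 ± 0.16) and Gm13767 (1.02 ± 0.17). It was more negative for Ston1 (-1.79 ± 0.31), Bbc3 (-1.68 ± 0.21), Gm7457 (-1.62 ± 0.27) and Cxcr4 (-1.18 ± 0.13). For Ston1 the bone marrow mCherry levels lie below the 0.1 FPKM added before the logarithm, so the size of its difference is uncertain. With 1 bone marrow library left out, the calls of Bbc3 and Cxcr4 were kept in all 8 fits. Those of Samsn1 and Ptp4a1 ended in 3 each, those of Pla2g3, Gm13767 and Gm7457 in 5 each, and that of Ston1 in 7. With the replicate number as a block, only Bbc3, Cxcr4 and Ston1 of these genes were called.

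Single libraries stood away from the other 3 of their group in 19 of 272 groups of 4 examined, where about 1 in 20 is the number that chance gives. The values below are the gap to the nearest library as a share of the range of the group. In hM3Dq library 6, which was high, they were 0.984 for Birc3, 0.939 for Slc2a1, 0.911 for Errfi1, 0.901 for Prdm1, 0.881 for Samsn1, 0.832 for Trp53inp1, 0.831 for Tlr7, 0.830 for Ptp4a1 and 0.830 for Arrdc4. In hM3Dq library 5 they were 0.838 for Cirbp, an RNA-binding protein induced by cold, and 0.831 for Acsl1. In mCherry library 1 they were 0.905 for Sik1, 0.902 for Id2, 0.856 for Sgk1, 0.845 for Txnip and 0.841 for Tsc22d3. The value was 0.939 for the lambda light chain gene Iglc1 in mCherry library 2, and 0.847 for Il1r2 and 0.880 for Gm13767 in mCherry library 3.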

How the results depend on the processing

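Of 117 named calls, 71 were kept in all fits without 1 library in which they could be tested and 58 in these and all 11 other settings, and no called gene changed direction. Without hM3Dq libraries 5 and 6 44 of the 117 were lost, and with no filter 47. The 780 calls (504 higher, 276 lower) became 304 (186, 118) without hM3Dq libraries 5 and 6, an alternative chosen after seeing the data, like that without 7 and 8, which gave 1283 (475, 808). They were 496 (307, 189) with haemoglobin share as a covariate, 300 (227, 73) with no filter, and 1583 (978, 605) in 1 fit of 16 libraries, while no composition scaling gave 640 higher and 158 lower. Leaving out 1 library gave 271 to 714 calls, 212 to 426 higher and 59 to 289 lower. Changes of at least 2-fold, 192 in the main test, were 127 without hM3Dq 5 and 6, 440 without 7 and 8, 109 with no filter, 91 with a pseudocount of 1, and 97 to 203 without 1 library. The causes were not tested, apart from fewer samples and the extra genes tested with no filter. The median change of all genes was -0.0042 with scaling and 0.0647 without it. The tissue differences, 18, were 11 with no scaling, 81 with a pseudocount of 1 and 4 to 33 without 1 library. With the replicate number as a block they were 9, and of the 8 genes named for a difference Bbc3, Cxcr4 and Ston1 were among them, while Samsn1, Ptp4a1, Pla2g3, Gm13767 and Gm7457 were not. Same-numbered bone marrow and spleen libraries had correlated deviations of 0.037 to 0.338, not all above 0.1. For hM3Dq 5 the correlation was higher with spleen library 6 (0.101) than with spleen library 5 (0.048). Every other bone marrow library correlated best with the spleen library of its own number, among those of its virus group. Whether a shared number marks a shared mouse was not settled, and the main fit did not pair the numbers. The hM3Dq and mCherry libraries could not be paired with each other, because the bone marrow groups share no replicate number. Sign changes occurred only in genes not called. Without hM3Dq 5 and 6 they were Nr3c1 (-0.0855), Bbc3 (0.10), Cxcr2 (-0.0076) and Mt2 (0.37). With the haemoglobin covariate they were Nr3c1 (-0.0706), Bbc3 (0.0161) and Mt2 (0.23). Mt1 was at -0.0076 without hM3Dq 7 and 8, and Mt2 ranged from -0.3231 to 0.033 without 1 library. Genes under 10 reads in most libraries were not tested, and a change in them was not detectable at this depth.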

Other observations

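Heavy and kappa chain immunoglobulin segments lay mostly higher in the hM3Dq libraries (these genes were chosen after their values were seen). Of 98 tested heavy chain variable segments 21 rose and none fell, and 84 lay above 0 (median log2 change 0.66), where 3.13% of all tested genes rose and 49.3% lay above 0. Their summed level was 2703, 3697, 2617 and 2541 FPKM in hM3Dq libraries 5 to 8 and 1524, 1987, 1900 and 1587 in mCherry libraries 1 to 4, without overlap. Of 88 kappa variable segments 8 rose, none fell and 80 lay above 0 (median 0.70), with sums of 3579, 5078, 3753 and 3419 against 2599, 2776, 2387 and 2949 FPKM. Igha, the constant region of IgA, was at 1221, 1745, 1512 and 1314 against 579, 809, 1111 and 582 FPKM (0.88 ± 0.22, limma adjusted p = 0.04998), and that call ended in 7 of 8 fits without 1 library. Of the 3 lambda variable segments tested 1 rose and the median was -0.08. The lambda constant gene Iglc1 fell and was at 36.2, 47.2, 42.6 and 19.1 against 94.1, 273, 82.3 and 83.4 FPKM (-1.82 ± 0.40, adjusted p = 0.0341), with mCherry library 2 far above the rest, and that call ended in 6 of 8 fits without 1 library and in 4 other settings. Segments share sequence, so values of single segments are uncertain.

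Both cold-inducible RNA-binding protein genes were higher, beside the lower chaperone Hsph1. Cirbp was at 32.8, 38.4, 39.4 and 39.4 against 9.42, 18.6, 20.9 and 17.00 FPKM (1.17 ± 0.21, adjusted p = 0.0167), and Rbm3 at 86.97, 96.5, 86.2 and 97.7 against 57.1, 72.2, 68.98 and 65.2 (0.41 ± 0.08, adjusted p = 0.0252), a call that ended in 6 of 8 fits without 1 library. Rbm3 overlaps an antisense gene, from which it cannot be told apart here. The cholesterol exporter gene Abca1 was higher, at 2.81, 4.79, 3.43 and 3.12 against 1.73, 1.70, 1.19 and 1.59 FPKM (1.06 ± 0.19, adjusted p = 0.0169), while Nr1h3, which encodes a sterol-sensing receptor that induces it, was lower (-1.05 ± 0.25, adjusted p = 0.0419). The call of Nr1h3 ended in 7 of 8 such fits. Vcan, the matrix proteoglycan versican of monocytes, was at 1.26, 3.62, 2.86 and 2.31 against 0, 0.370, 0.176 and 0.817 FPKM (adjusted p = 0.0299), and its call ended in 5 of 8.

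The 4 hM3Dq libraries had the same order of levels, 6 above 8 above 7 above 5, in some of the genes called higher, among them Per1, Dusp1, Cd14, Cxcl2, Fos and Cebpb. This order was chosen after the values were seen, so the shares of called genes include the genes that led to it. It held for 5 of the 22 genes that rose at least 4-fold (22.7%), for 51 of the 504 genes called higher (10.1%) and for 549 of the 16095 tested (3.41%), and for 22 (4.37%) and 115 (0.715%) in the spleen libraries of the same numbers too. Per1 in spleen was at 12.9, 38.5, 16.98 and 26.6 FPKM and Dusp1 at 18.4, 41.1, 21.5 and 29.6. Thbs1, which was not called, was at 20.1, 242, 58.7 and 117 FPKM in bone marrow and 3.30, 18.6, 8.15 and 14.4 in spleen. Library 6 was the highest of the 4 for 324 of the genes called higher (64.3%) and for 5130 of all tested (31.9%). The genes share these libraries and are not independent, so no p is given.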
